A study of Mus musculus with 70 samples.

Results

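Regulatory T cells (Tregs) that lack the IL-33 receptor ST2 but carry high surface CD44, the effector-type ST2- CD44hi Tregs, were compared between blood and spleen of the same animals. The members were the libraries labelled as ST2- CD44hi Tregs of blood and of spleen that held more than 1000000 counts, 5 of each tissue, which makes 10 of the 70 libraries of the series. The other libraries hold ST2+ CD44hi Tregs of these and further tissues, ST2- CD44hi Tregs of further tissues and ST2- CD44lo Tregs of lung and spleen, and 67 of the 70 passed the same threshold. All groups used here came from 5 male mice of the B6.129(Cg) strain with the allele Foxp3tm4(YFP/icre)Ayr/J, called Foxp3YFP-cre, in which a fused YFP and Cre protein is made from the Foxp3 locus, so that YFP marks Tregs. The mice were 16.6, 17.1, 17.4, 18.1 and 18.6 weeks old (mice 1 to 5). From each mouse and tissue 220 cells were sorted as live CD4+ YFP+ cells that were CD45.2+, ST2- and CD44hi and lacked CD8 and CD11b, except for blood of mouse 1, with 166 cells. Spleen cells were enriched for CD4+ cells on a magnetic column before the sort and blood cells were not, so that the tissue and this step cannot be told apart.

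Tregs restrain other immune cells and are held in their lineage by the transcription factor FOXP3. Resting Tregs circulate between blood and lymphoid organs, using the chemokine receptor CCR7 to enter lymph nodes and the sphingosine 1-phosphate receptor S1PR1, whose gene is driven by KLF2, to leave lymphoid tissue for the blood. Antigen receptor signals lower KLF2 and induce immediate early factors of the EGR, NR4A and AP-1 families, NF-kB target genes, IRF4 and BATF, which support the effector program. In the spleen, some Tregs enter B cell follicles, where they are known as follicular regulatory T cells.

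The 5 blood libraries held 1545636 to 2166518 counts and the 5 spleen libraries 2195741 to 2656728. Between 12051 and 14957 genes were detected in blood and between 14405 and 15757 in spleen, a difference of -1389 in the means (exact permutation test over the 10 libraries, two-sided p = 0.0556, where the smallest this design can give is 0.00794). Thinned to an equal 1545636 counts, the difference was -969.8 genes (exact permutation p = 0.198). The blood libraries of mice 1 and 2 stood apart, with 12051 and 12587 genes against 14819 to 14957 in the other blood libraries, and they lay farthest from the rest on the first principal component, which carried 31.2% of the variance of the 10 libraries. Spearman correlations had a median of 0.964 between spleen libraries and 0.914 between blood libraries, or 0.945 between the 3 blood libraries of mice 3 to 5. Between blood and spleen libraries the median was 0.934 within a mouse and 0.920 across mice. Without the blood libraries of mice 1 and 2 it was 0.936 and 0.935. Counts of genes are therefore given also without these 2 blood libraries, a choice made after seeing the data.

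**Figure D1:**
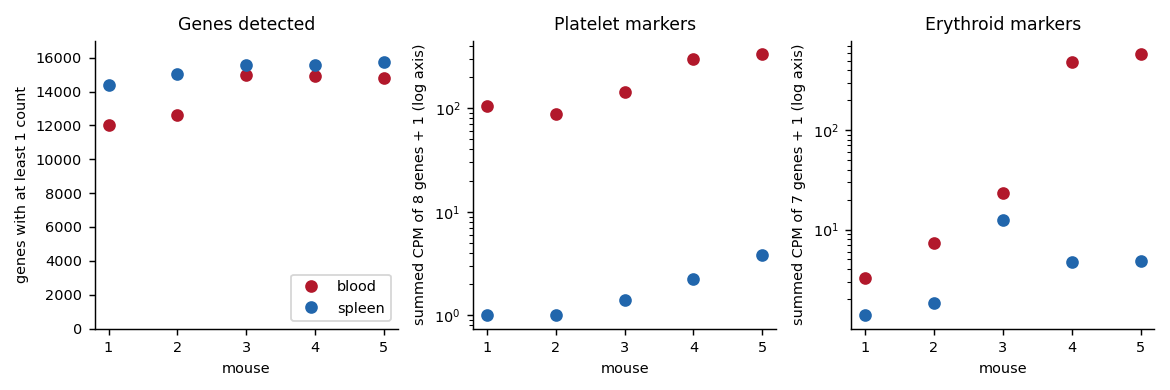
Left, genes with at least 1 count in each library, by mouse. Middle and right, the summed CPM (counts per 1000000 counts) of 8 platelet and 7 erythroid marker genes plus 1, on log axes. Blood (red) lies above spleen (blue) for platelet markers in all 5 mice, and blood of mice 1 and 2 has the fewest genes.

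None of 9 tested genes of the sort gate was called (median log2 fold change 0.30). Foxp3 was at 145, 179, 161, 106 and 155 CPM in blood of mice 1 to 5 and at 124, 161, 115, 151 and 138 in spleen, and the groups overlapped (log2 fold change 0.12 ± 0.13 SE, adjusted p = 0.724). Cd44 stood at 141 ± 59.8 CPM in blood (SD, n = 5) and 175 ± 35.5 in spleen, with the lowest library, at 42.2, from blood of mouse 2 (adjusted p = 0.444). Il1rl1, which encodes ST2, was low in every library, at 0.630 to 13.9 CPM in blood and 0 to 3.30 in spleen (adjusted p = 0.0890, 0.0364 without the blood libraries of mice 1 and 2). Cd8a had no count in any of the 10 libraries. Cd8b1, also of the CD8 gate, was found in all of them, at 18.3 to 81.2 CPM in blood and 18.2 to 49.9 in spleen (adjusted p = 0.656). Itgam, which encodes CD11b, was at 2.52 and 5.36 CPM in blood of mice 2 and 3 and had no count in the other libraries. Among 15 Treg identity genes tested, 1 fell in blood, the inhibitory receptor gene Tigit, and none rose, with a median log2 fold change of -0.21 against 0.00 over all genes. Il2ra, the high-affinity IL-2 receptor chain, gave 0.24 ± 0.16 (adjusted p = 0.464) and Ikzf2, which encodes Helios, -0.21 ± 0.16 (adjusted p = 0.538).

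Of 13173 protein-coding genes tested, 476 (3.61%) passed a fold of 1.5 and a Benjamini-Hochberg adjusted p of 0.05 in edgeR's quasi-likelihood test. In blood 255 (1.94%) were higher and 221 (1.68%) lower. The genes that rose in blood had a median log2 fold change of 0.97 and a median level of 165 CPM in blood, while those that fell had a median of -2.10, from a median level of 69.6 CPM in spleen. A change over 4-fold was seen in 35 of the genes that rose and in 118 of those that fell. In all 5 mice 219 of the 255 were higher in blood than in spleen, and 193 of the 221 were lower. The 5 blood and 5 spleen values did not overlap in 335 of the 476 genes (70.4%) against 6.92% of all genes tested, with overlap and the call drawn from the same values. No count was found in any blood library for 35 of the genes that fell, and none in any spleen library for 16 of those that rose.

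Without the blood libraries of mice 1 and 2, 175 genes were higher and 88 lower, of which 157 and 76 were among the 255 and 221, and all 221 genes that fell and 254 of the 255 that rose kept their sign. Leaving out the blood libraries of mice 4 and 5 in their place left 223 and 296. With mouse as a block, 301 genes were higher and 265 lower in the fit of all 14 groups (466 of the 476 among them), and 179 and 111 in the fit of the 10 libraries alone. limma's voom with quality weights, the method of the study, called 448 higher and 487 lower.

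**Figure D2:**
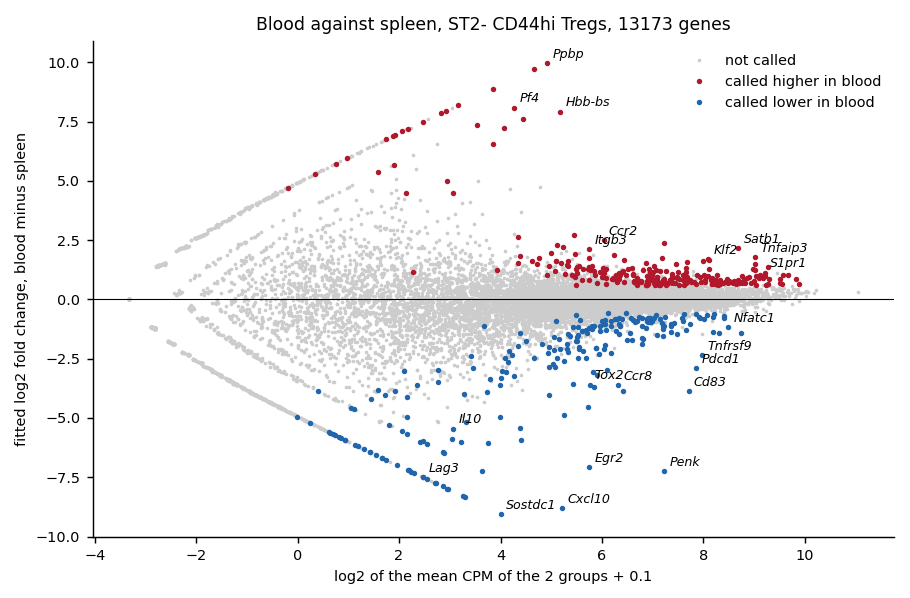
Fitted log2 fold change (blood minus spleen) against the log2 mean CPM of the 2 groups plus 0.1 for 13173 genes. The 255 genes called higher in blood (red) cluster at moderate fold changes and high levels, and the 221 called lower (blue) reach larger ones. The lines of points at the edges are genes without counts in 1 tissue.

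Several genes of the egress and recirculation list and of the quiescence and FoxO list were higher in blood. Of 13 egress and recirculation genes 6 rose and 1 fell, with a median log2 fold change of 0.99, and of 15 quiescence and FoxO genes 9 rose and none fell, with a median of 0.81. Without the blood libraries of mice 1 and 2, 5 and 6 rose and none fell. Klf2, the transcription factor that drives S1pr1, was at 450.2, 429, 379, 380.3 and 442 CPM in blood of mice 1 to 5 and at 143, 145, 113, 134 and 104 in spleen. The lowest blood library exceeded the highest spleen library, and Klf2 was 3.26-fold higher (log2 fold change 1.70 ± 0.17, adjusted p = 6.44e-11). S1pr1, the exit receptor, was at 676, 923, 789, 864 and 819 CPM in blood and 382, 409, 369, 347 and 351 in spleen, without overlap (2.19-fold, adjusted p = 3.38e-05). S1pr4, a receptor for the same lipid, rose 2.18-fold (adjusted p = 0.0185), a call that was lost without spleen of mouse 3 or mouse 5 (adjusted p up to 0.0688) and without the blood libraries of mice 1 and 2 (0.104). S1pr2, which inhibits migration, was at 0.447, 0, 24.4, 3.60 and 8.28 CPM in blood and at 44.5 to 66.4 in spleen. It fell 7.29-fold (adjusted p = 0.0111), and the groups did not overlap. This call was lost without the blood libraries of mice 1 and 2 (adjusted p = 0.168) and in the 10-library fit with mouse as a block (adjusted p = 0.0671).

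The FoxO factor Foxo1 was at 426 to 502 CPM in blood, median 471, and at 255 to 305 in spleen, median 284 (1.67-fold, adjusted p = 1.25e-04). Il7r, the IL-7 receptor chain, was at 543, 501, 452, 612 and 766 CPM in blood and 215, 280.0, 238, 424 and 289.7 in spleen (1.99-fold, adjusted p = 1.49e-04). Each mouse had more Il7r in blood than in spleen, and the highest spleen library, of mouse 4, stayed just under the lowest blood library. Txnip, an inhibitor of thioredoxin and of glucose uptake, was at 785 to 1348 CPM in blood and 438 to 556 in spleen (2.03-fold, adjusted p = 4.17e-06). Klf3 rose 2.57-fold (adjusted p = 1.32e-05), Foxp1, which keeps T cells resting, 1.62-fold (adjusted p = 7.56e-04) and the cyclin-dependent kinase inhibitor Cdkn1b 2.14-fold (adjusted p = 0.0177, up to 0.0871 without spleen of mouse 1 or mouse 3, and 0.0700 without the blood libraries of mice 1 and 2). The anti-proliferative gene Tob1 gave a 2.31-fold difference (adjusted p = 0.0196) that was lost without blood of mouse 1 or 3 or spleen of mouse 1, 2 or 5 (up to 0.106) and without the blood libraries of mice 1 and 2 (0.223). Tob1 was also not called in the 10-library fit with mouse as a block (0.213) or by voom (0.0637). Not all of these genes were higher in resting than in CD44hi Tregs of spleen. Il7r averaged 245 CPM in ST2- CD44lo Tregs of spleen and 289 in the CD44hi cells there, and Cdkn1b 79.4 and 80.3. Foxo1 averaged 449 and 281 CPM in these groups, Txnip 739.8 and 500.3, and Foxp1 555 and 377.

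Satb1 and Lef1, transcription factors of resting T cells, also rose. Satb1, a chromatin organizer, was at 736, 704, 701, 811 and 416 CPM in blood and at 139, 179, 152, 162 and 126 in spleen. It was 4.45-fold higher in blood (log2 fold change 2.15 ± 0.39, adjusted p = 1.13e-04), and even the blood library of mouse 5, the lowest, was far above all spleen libraries. For comparison the mean in ST2- CD44lo Tregs of spleen, the resting Tregs of that organ, was 705 ± 64.4 CPM (SD, n = 5). Lef1, a factor shared with naive T cells, was at 326 to 518 CPM in blood and 214 to 235 in spleen (1.76-fold, adjusted p = 0.00647, 0.0990 without the blood libraries of mice 1 and 2), while its relative Tcf7 gave a log2 fold change of 0.46 ± 0.31 (adjusted p = 0.467).

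Ccr7 separated the tissues without passing the test across groups. It was at 848, 1258, 881, 959.7 and 871 CPM in blood and 426, 442, 411, 515 and 431 in spleen. Ccr7 was higher in blood in every mouse without overlap, at 2.16-fold. In the fit of 14 groups, whose spread for this gene includes the other tissues, the adjusted p was 0.120. In the fit of the 10 libraries alone it was 1.18e-04, and with mouse as a block there 4.88e-04.

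**Figure D3:**
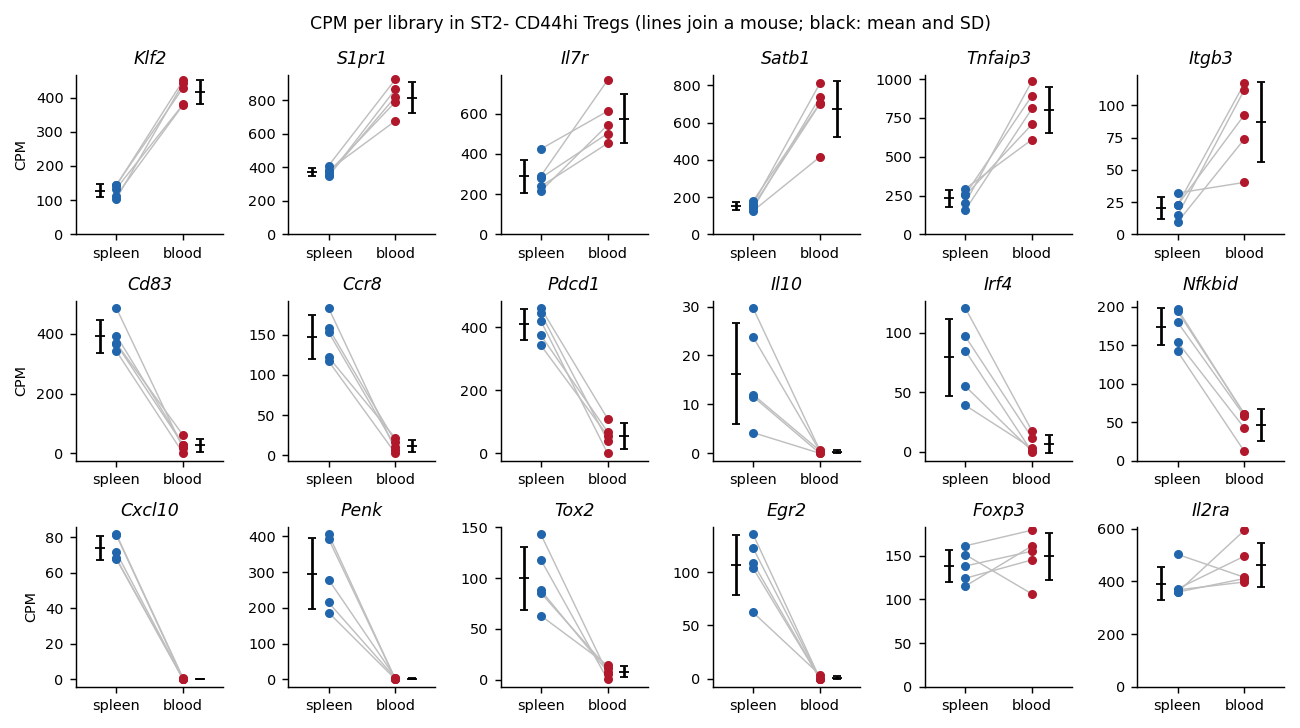
CPM of 18 genes in the 5 spleen (blue) and 5 blood (red) libraries, with a line for each mouse and the mean and SD in black. The 6 genes of the top row are higher in blood in all 5 mice, the 10 from Cd83 to Egr2 lower in all 5, and Foxp3 and Il2ra overlap.

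The genes with the smallest adjusted p among those that rose were led by Tnfaip3, Crlf3, Klf2, P2ry10, Gpcpd1 and Tsc22d3. Crlf3, a cytokine receptor-like gene, was at 686, 911, 708, 828 and 832 CPM in blood and at 384 to 417 in spleen (2.0-fold, adjusted p = 6.44e-11). P2ry10, a lysophospholipid receptor on lymphocytes, was at 304, 497, 367, 429 and 329 CPM in blood and at 95.2 to 150.2 in spleen (3.05-fold, adjusted p = 2.58e-10). Neither gene overlapped between the tissues. Tsc22d3, the glucocorticoid-induced leucine zipper, was at 686 to 943 CPM in blood, median 712, and 187 to 340.5 in spleen, median 292 (2.85-fold, adjusted p = 6.39e-09). Of 12 glucocorticoid response genes tested, however, Tsc22d3 and Il7r rose and Fkbp5, a classical target that encodes a chaperone of the receptor, fell 3.65-fold (adjusted p = 0.00455, 0.112 without the blood libraries of mice 1 and 2), and the list median was -0.06. Gpcpd1 (2.53-fold), Tmem64 (2.25-fold), Cytip, a regulator of integrin adhesion (1.80-fold), Ssh2, a cofilin phosphatase (2.45-fold), the kinase gene Pim1 (2.65-fold), Selplg (1.55-fold) and Ifngr1, the interferon gamma receptor (1.99-fold), made up the rest of the 12, each without overlap between the groups.

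Adhesion genes changed in both directions. Of 18 integrin and selectin ligand genes 4 rose, 1 fell and 13 did not pass, with a median of 0.46, and without the blood libraries of mice 1 and 2 the 4 remained and the other was no longer called. Itgb3, the beta 3 integrin chain, was at 112, 40.3, 117, 92.6 and 73.9 CPM in blood and at 14.7, 32.0, 22.8, 22.7 and 9.44 in spleen (4.31-fold, adjusted p = 2.30e-06). Platelets also make Itgb3, and the part of their RNA in this value was not tested. Their own partner chain Itga2b was at 39.8, 0, 32.1, 62.3 and 31.9 CPM in blood, and Itgb3 stood at 79.8 ± 29.3 CPM in the resting Tregs of spleen, where Itga2b averaged 0.985. Itga4, the alpha 4 chain that binds VCAM-1, was at 566 to 941 CPM in blood, median 708, and 235 to 483 in spleen, median 413. Its 1.88-fold difference (adjusted p = 0.0171) was lost without blood of mouse 4 or spleen of mouse 1 (adjusted p up to 0.0984), and the 2.05-fold difference of Itga6 (adjusted p = 0.0166) without blood of mouse 4 or spleen of mouse 5 (up to 0.0736). Selplg, the P-selectin ligand PSGL-1, was at 808 to 1017 CPM in blood and 541 to 616 in spleen (adjusted p = 7.06e-07). It dropped below a 1.5-fold change, with an adjusted p of at most 1.70e-05, without blood of mouse 2. Itgb8, which pairs with the alpha v chain to activate TGF-beta, fell 2.95-fold (adjusted p = 0.00974, 0.0539 in the 10-library fit with mouse as a block).

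Among 16 chemokine receptors Ccr2 rose and Ccr8 fell, and the list median was -0.32. Ccr8, a receptor of activated Tregs, was at 17.0, 2.52, 6.82, 10.8 and 21.3 CPM in blood and at 158, 117, 183, 153 and 122 in spleen. The groups were far apart, at 12.4-fold (log2 fold change -3.63 ± 0.36, adjusted p = 6.44e-11). Ccr2, a receptor for inflammatory monocyte chemokines, was at 22.8, 22, 159.8, 119.9 and 231 CPM in blood and at 41.1, 13.7, 1.69, 26.0 and 15.4 in spleen. Blood of mice 1 and 2 overlapped the spleen libraries and blood of mice 3 to 5 lay above them. The 5.6-fold difference (adjusted p = 3.50e-04) was not called in the fits of the 10 libraries alone (adjusted p = 0.269 with mouse as a block). Cxcr5, the follicle homing receptor, was at 127, 129.7, 71.1, 78.2 and 69.2 CPM in blood and 198, 174, 168, 186 and 199.9 in spleen, without overlap. Its log2 fold change of -0.96 ± 0.56 had an adjusted p of 0.388 across 14 groups and of 0.0113 in the 10 libraries alone (0.0199 with mouse as a block).

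Several genes that antigen receptor stimulation induces fell. Of 33 AP-1 and immediate early genes 7 fell and 1 rose, with a median of -0.64, and without the blood libraries of mice 1 and 2, 9 fell and 1 rose, with a median of -1.03. Egr2 was at 104, 123, 109, 62.3 and 136 CPM in spleen and was found in blood of mouse 4 alone, at 3.60 CPM (135-fold, log2 fold change -7.07 ± 1.25, adjusted p = 9.82e-05). Egr1 fell 13.1-fold, from 106 ± 36.5 CPM in spleen to 8.0 ± 8.11 in blood (adjusted p = 3.86e-05). Nr4a1, whose product Nur77 reports recent receptor signals, was at 50.1, 4.41, 23.4, 9.26 and 14.2 CPM in blood and at 221, 84.4, 94.8, 49.5 and 62.9 in spleen. Nr4a1 was lower in blood in every mouse (4.89-fold, adjusted p = 1.10e-04), although the groups met at blood of mouse 1 and spleen of mouse 4. Nr4a2 fell 11.2-fold and Nr4a3 5.25-fold (adjusted p = 0.00357 and 0.00252), but neither was called in the 10-library fit with mouse as a block (adjusted p = 0.328 and 0.130), and Nr4a2 was not called without the blood libraries of mice 1 and 2 (0.0903). voom with quality weights called none of Egr1, Nr4a1, Nr4a2 and Nr4a3.

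Fos and Jun, the AP-1 subunits themselves, overlapped between the tissues. Fos was at 135, 212, 164, 162 and 52.6 CPM in blood and at 32.6, 397, 63.0, 273 and 37.7 in spleen (log2 fold change -0.14 ± 0.50, adjusted p = 0.965), and Jun was at 45.6 to 173 in blood and 59.0 to 389 in spleen (adjusted p = 0.200). Spleen of mice 2 and 4 was high in both genes. Batf, an AP-1 partner that works with IRF4, was at 138, 71.2, 89.6, 105 and 112 CPM in blood and 180.4, 228, 260.2, 248 and 207 in spleen, without overlap (2.17-fold, adjusted p = 5.32e-06). Klf6 went the other way, from 311 ± 67.4 CPM in spleen to 729.5 ± 109 in blood (2.34-fold, adjusted p = 1.55e-06). Ier5 was 1.52-fold lower (adjusted p = 0.0329), with its highest library, at 284 CPM, from blood of mouse 2, and was called in 3 of the 10 fits with 1 library left out (up to 0.142) and not in the 10-library fit with mouse as a block (0.119).

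Cd83, an activation marker that stabilizes surface MHC class II, had the smallest adjusted p of the genes that fell. It was at 0.447, 29.0, 16.6, 60.7 and 28.4 CPM in blood and at 342, 394, 486, 368 and 366 in spleen (14.6-fold, log2 fold change -3.87 ± 0.38, adjusted p = 4.97e-11). Penk, the enkephalin precursor, was at 187, 406, 393, 279 and 215 CPM in spleen and at 0 to 5.15 in blood (151-fold, adjusted p = 1.33e-06). The stress kinase gene Plk3 fell 7.85-fold (adjusted p = 6.57e-07), the phosphatase gene Ptpn7 2.61-fold (adjusted p = 2.98e-06), and Ier5l had 312 counts over the spleen libraries and 1 over the blood libraries, a ratio of 232 once scaled to library size (95% exact interval 41.4 to 9202, counting error only). Of the 6 genes with the largest fitted fall, 3 belonged to no gene list and had no count in blood. Slc24a3, a sodium and calcium exchanger, was at least 46.6-fold lower (against 3 counts over the group, adjusted p = 0.00106, 0.0723 in the 10-library fit with mouse as a block). Scin, an actin-severing protein, was at least 59.5-fold lower (adjusted p = 0.0122, 0.0593 with that block, and not called without the blood libraries of mice 1 and 2), with no count in spleen of mouse 1 either. Serpina9, a protease inhibitor, was at least 47.6-fold lower (adjusted p = 0.0411) and was not called in any of the 10 fits with 1 library left out (up to 0.0839) or with that block (0.0662), and not by DESeq2 (0.216). Nfatc1, a factor that calcium signals activate and that induces its own gene, was at 160.1 to 282 CPM in blood and 422 to 580.0 in spleen (2.26-fold, adjusted p = 3.06e-06). It was the only 1 of 22 antigen receptor signalling genes to fall, and Cblb, a ubiquitin ligase that restrains such signals, the only 1 to rise, from 162 ± 14.8 CPM to 394 ± 91.5 (2.43-fold, adjusted p = 6.77e-06).

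Of 15 genes of the TNF receptor superfamily 3 fell and none rose, and the same count held without the blood libraries of mice 1 and 2. Tnfrsf9, which encodes the costimulatory receptor 4-1BB, was at 65.3, 44.7, 96.9, 118 and 84.5 CPM in blood and 357, 416, 460.3, 447 and 409 in spleen (5.08-fold, adjusted p = 2.62e-08). Tnfrsf8, which encodes CD30, was at 14.7, 22.5, 19.5, 23.5 and 15.0 CPM in spleen and had no count in blood, where it was at least 59.5-fold lower (against 3 counts over the group, adjusted p = 7.56e-04). Tnfrsf1b, the TNF receptor that supports Treg expansion, fell 2.66-fold (adjusted p = 1.70e-04). Tnfrsf18, which encodes GITR and stands high in all Tregs, gave -0.08 ± 0.12 (adjusted p = 0.817).

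Genes of the NF-kB system changed in both directions. Of 24 tested 5 fell and 1 rose, with a median of -0.28, and without the blood libraries of mice 1 and 2, 4 fell and 1 rose. Nfkbid, a nuclear inhibitor of kB family protein that supports Foxp3 transcription, was at 60.8, 12, 42.4, 58.1 and 60.3 CPM in blood and 194, 142, 154, 179.9 and 197 in spleen (3.69-fold, adjusted p = 1.30e-07). Bcl3, its relative, was at 119, 49.1, 54.6, 65.9 and 59.1 CPM in blood and 154, 151, 176, 188 and 145 in spleen (2.33-fold, adjusted p = 1.06e-06). Both were lower in blood in every mouse without overlap. The noncanonical subunits Relb (2.18-fold, adjusted p = 0.00427) and Nfkb2 (1.89-fold, adjusted p = 0.0190) overlapped at blood of mouse 1. Relb was not called in the 10-library fit with mouse as a block (adjusted p = 0.0924), and Nfkb2 was lost without blood of mouse 2, 4 or 5 (up to 0.0712). Zc3h12c, a relative of the RNA-degrading protein regnase, fell 9.87-fold (adjusted p = 0.0267), a call that was lost without blood of mouse 1, 2, 3 or 4 or spleen of mouse 5 (up to 0.0807), and without the blood libraries of mice 1 and 2 (0.220). Against these, Tnfaip3, the ubiquitin-editing inhibitor A20, was at 611, 988, 894, 709 and 811 CPM in blood and at 294, 202, 257, 250.5 and 157 in spleen. It had the smallest adjusted p of all genes (3.46-fold, log2 fold change 1.79 ± 0.16, adjusted p = 1.17e-11). Nfkbia, the prototype inhibitor, gave -0.10 ± 0.16 (adjusted p = 0.832).

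Promoters of these genes hold matches to the kB consensus whichever way the genes moved, and stretches of 4 are shown for that reason, with the matches in capitals, 5′ to 3′ on the strand of the gene (RefSeq windows, GRCm38.p6).
Nfkbid (chr7:30422156-30422275, + strand): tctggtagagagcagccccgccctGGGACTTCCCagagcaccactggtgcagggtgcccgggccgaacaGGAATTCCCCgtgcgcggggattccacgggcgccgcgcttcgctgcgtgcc
Cxcl10 (chr5:92348984-92349103, - strand): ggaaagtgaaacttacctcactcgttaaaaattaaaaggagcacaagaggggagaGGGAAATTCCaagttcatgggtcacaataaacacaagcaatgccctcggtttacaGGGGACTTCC
Tnfrsf9 (chr4:150927946-150927975, + strand): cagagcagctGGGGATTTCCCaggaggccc
Tnfaip3 (chr10:19015516-19015545, - strand): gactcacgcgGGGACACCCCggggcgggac
The first matches lie 226, 159, 43 and 125 bases before the annotated start of transcription of Nfkbid, Cxcl10, Tnfrsf9 and Tnfaip3, and the stretches of Nfkbid and Tnfaip3 each lie in an intron of another transcript of the same gene. That of Cxcl10 lies inside an Art3 transcript without touching an exon, and that of Tnfrsf9 overlaps an untranslated exon of another Tnfrsf9 transcript and lies inside Camta1. Cxcl10, the T cell chemoattractant, was at 67.8, 68.2, 71.5, 81.3 and 81.8 CPM in spleen and had 1 count over the 5 blood libraries against 949 in spleen, a ratio of 706 (95% exact interval 126 to 27930, counting error only, adjusted p = 3.25e-07). The kB consensus, searched on both strands, stood in 8.46% of all 32851 windows of 300 bases. By gene, it was in 12.5% of 10361 tested genes with a window, in 11.9% of 202 genes that rose and in 18.9% of 175 that fell, and no test was made of these shares. The AP-1 motif TGANTCA, which cannot match within the CRE motif TGACGTCA, was in 7.81% of all windows and the CRE motif in 1.79%. By gene, the AP-1 motif was in 6.25% of the tested genes, 9.41% of those that rose and 5.71% of those that fell, and the CRE motif in 3.48%, 1.98% and 2.86%. The interferon-stimulated response element, searched as GAAANNGAAA, was in 3.44% of all windows and, by gene, in 3.97%, 4.46% and 4%. A match is a string of letters and says nothing on binding in these cells.

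Several effector molecules of Tregs were lower in blood. Of 17 suppressive effector genes 6 fell and none rose (4 without the blood libraries of mice 1 and 2), with a median of -0.31. Il10, the anti-inflammatory cytokine, was at 23.8, 11.6, 4.23, 12 and 29.7 CPM in spleen and at 0.447, 0, 0, 0.515 and 0.591 in blood, or 217 counts against 3 (ratio 53.8, 95% exact interval 18.2 to 263, counting error only, adjusted p = 2.34e-06). Pdcd1, which encodes PD-1, was at 0.447, 110.2, 40.9, 56.6 and 68.6 CPM in blood and 420.2, 461, 444, 343 and 375 in spleen (7.49-fold, adjusted p = 1.35e-06). Both genes separated the tissues in all mice. Lag3, an inhibitory receptor that binds MHC class II, was at 7.43 to 13.6 CPM in spleen without a count in blood, at least 34.7-fold lower (against 3 counts over the group, adjusted p = 0.00106). Areg, the tissue-repair growth factor amphiregulin, was at 0.447 to 4.87 CPM in blood and 8.07 to 27.6 in spleen (7.46-fold, adjusted p = 4.83e-05). Tigit was at 50.5, 30.2, 16.6, 97.8 and 160.2 CPM in blood and 162 to 234 in spleen, a narrow separation (2.83-fold, adjusted p = 6.42e-04). In the 10-library fit with mouse as a block the adjusted p was 0.0978 for Lag3, 0.0629 for Areg, which voom did not call either (0.0960), and 0.0583 for Tigit, which was also not called without the blood libraries of mice 1 and 2 (0.0554). Ebi3, a subunit of IL-35, fell 3.38-fold (adjusted p = 0.0106, 0.0934 without the blood libraries of mice 1 and 2). Ctla4 stood at 571 ± 81.8 CPM in blood and 426 ± 45.9 in spleen (adjusted p = 0.0923) and Icos gave a log2 fold change of -0.27 ± 0.16 (adjusted p = 0.361).

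Of 23 differentiation transcription factors 5 fell, Batf among them, and 2 rose, Satb1 and Lef1, with a median of -0.32 that turned to 0.19 without the blood libraries of mice 1 and 2 (2 higher, 4 lower). Irf4, required for effector Treg differentiation, was at 0, 0.630, 17.5, 3.09 and 11.8 CPM in blood and 85.1, 55.3, 121, 39.2 and 97.1 in spleen (11.9-fold, adjusted p = 5.78e-04). Bhlhe40 fell 3.33-fold (adjusted p = 4.29e-06), Nfil3 3.80-fold (adjusted p = 4.04e-05) and Prdm1, which encodes BLIMP-1, 3.40-fold (adjusted p = 0.00570). Prdm1 was not called without the blood libraries of mice 1 and 2 (adjusted p = 0.184), and neither Nfil3 nor Prdm1 was called in the 10-library fit with mouse as a block (adjusted p = 0.127 and 0.0776). voom did not call Prdm1 (0.0592). Gata3 and Tbx21, lineage factors of helper T cells, were not called, with log2 fold changes of 0.11 ± 0.13 for Gata3 and -0.96 ± 0.93 for Tbx21 (adjusted p = 0.771 and 0.677).

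Genes of follicular regulatory T cells gave the lowest median of the lists other than cell markers, -1.76. Of 15 tested 6 fell and none rose, and 3 fell without the blood libraries of mice 1 and 2, with a median of -1.34. Sostdc1, a secreted Wnt and BMP antagonist of follicular T cells, was at 31.2, 62.4, 27.5, 26.8 and 11.9 CPM in spleen and had no count in blood, at least 99.0-fold lower (against 3 counts over the group, adjusted p = 0.00917). It also averaged 0 in ST2- CD44hi Tregs of lung and in the resting Tregs of spleen. The other called genes of this list were present in ST2- CD44hi Tregs of lung. There Pdcd1 averaged 314 CPM, Tox 193, Tox2 67.7, Il1r2 55.4 and Angptl2 21.5. In ST2+ CD44hi Tregs of spleen the same genes averaged 493, 231, 61.1, 135 and 65.3 CPM, and Sostdc1 0.0769. Il1r2, the decoy receptor for IL-1, was at 167, 96.5, 256, 154 and 127 CPM in spleen and 0 to 21.3 in blood (14.6-fold, adjusted p = 2.75e-05). Tox2, a factor of the follicular program, was at 118, 143, 85.5, 63.1 and 88.1 CPM in spleen and 0.447 to 14.4 in blood (12.1-fold, adjusted p = 3.12e-05). Angptl2 was at 40 to 164 CPM in spleen and was found mainly in blood of mouse 5, at 21.9 (23.2-fold, adjusted p = 0.00787, 0.121 without the blood libraries of mice 1 and 2). Tox fell 1.71-fold (adjusted p = 0.00296, 0.173 without those libraries and 0.0526 in the 10-library fit with mouse as a block), and Sostdc1 was likewise not called without them (0.0753). The defining factor of the program, Bcl6, was at 0 to 13.6 CPM in blood and 6.60 to 19.9 in spleen (log2 fold change -1.02 ± 0.69, adjusted p = 0.472). In bulk RNA, fewer cells of a type and less RNA per cell cannot be told apart, which holds for this list and for each gene above.

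**Figure D4:**
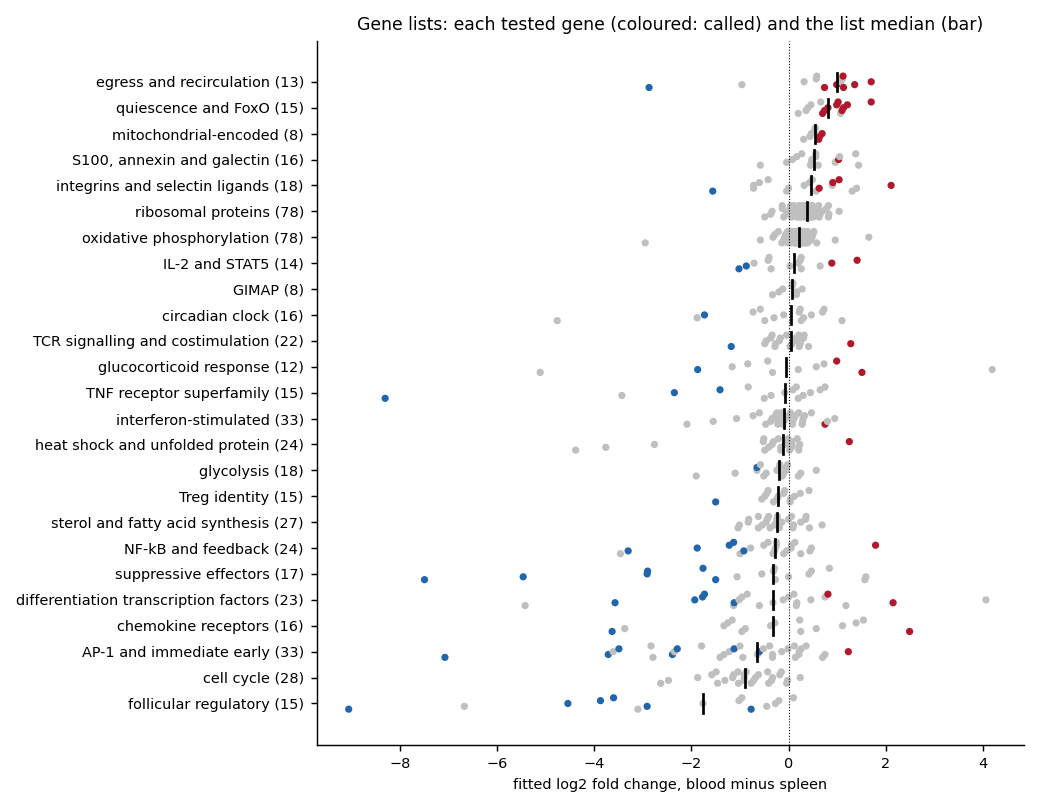
Fitted log2 fold change (blood minus spleen) of every tested gene of 25 gene lists, with the number tested in parentheses, called genes in red (higher in blood) or blue (lower) and the list median as a bar. Egress and quiescence lists lie to the right and the follicular list farthest to the left.

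The remaining lists held few calls. In the IL-2 and STAT5 list of 14 genes the kinase gene Pim1 (adjusted p = 6.57e-07, 0.0832 in the 10-library fit with mouse as a block) and the survival gene Bcl2 (1.86-fold, adjusted p = 0.0453, called in only 3 of the 10 fits with 1 library left out) rose, and the feedback inhibitors Cish (2.03-fold, adjusted p = 2.87e-05) and Socs1 (1.82-fold, adjusted p = 0.00369) fell, with a median of 0.11. Of 33 interferon-stimulated genes Ly6a alone rose (1.68-fold, adjusted p = 0.00700, 0.0763 without the blood libraries of mice 1 and 2), of 24 heat shock and unfolded protein genes Dnajb9 alone (2.38-fold, adjusted p = 0.00541, 0.323 in the 10-library fit with mouse as a block), and of 16 S100, annexin and galectin genes Crip1 alone (2.05-fold, adjusted p = 1.11e-05), with list medians of -0.10, -0.11 and 0.52. No gene of the cell cycle (28 tested, median -0.89), of sterol and fatty acid synthesis (27, -0.24), of the GIMAP family (8, 0.08), of the ribosome (78, 0.38) or of oxidative phosphorylation (78, 0.21) was called. The log2 fold change was positive for 1 of 28 cell cycle, 70 of 78 ribosomal and 66 of 78 oxidative phosphorylation genes, against 5996 of 13173 tested. Without the blood libraries of mice 1 and 2 the medians of these 3 lists were -0.46, 0.24 and 0.09. Of 18 glycolysis genes Tpi1 alone fell (1.57-fold, adjusted p = 0.0498, called in 3 of the 10 fits with 1 library left out, and 0.275 with mouse as a block in the 10 libraries), and of 16 circadian clock genes Bhlhe40 alone. Of 8 genes of the mitochondrial genome mt-Nd2, mt-Nd5 and mt-Nd6 rose 1.62-, 1.56- and 1.54-fold. Mitochondrial counts made up 0.335% to 0.492% of the blood libraries and 0.254% to 0.291% of the spleen libraries, highest in blood of mouse 2, and none of the 3 genes was called without the blood libraries of mice 1 and 2, or without blood of mouse 2 alone, or by voom. mt-Nd6 was also lost in the 10-library fit with mouse as a block (adjusted p = 0.125).

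RNA of platelets and red cells was found in the blood libraries. All 8 platelet markers had counts in blood, at a summed 86.9 to 334 CPM against 0 to 2.80 in spleen, and 6 of the 8 were called higher. Ppbp, a platelet chemokine, was at 21.5, 39.7, 48.7, 91.1 and 99.9 CPM in blood and had no count in spleen, at least 249-fold higher (against 3 counts over the group, adjusted p = 0.00161). Pf4, platelet factor 4, was at 43.4, 16.4, 17.0, 43.2 and 70.9 CPM in blood with 1 count in spleen (ratio 486, 95% exact interval 86.7 to 19262, counting error only). The calls of Gp1bb, Gp9 and Treml1 held in 3, 5 and 5 of the 10 fits with 1 library left out (adjusted p up to 0.0741, 0.0742 and 0.0650). In the 10-library fit with mouse as a block, Gp1bb (adjusted p = 0.127), Treml1 (0.0899) and Clec1b (0.0615) were not called. DESeq2 did not call Gp1bb, Gp9, Treml1, Clec1b or Hbb-bt (adjusted p = 0.345, 0.256, 0.570, 0.398 and 0.214). Of the 6 called genes with the largest fold among those that rose, Ppbp, Gng11, Clec1b and Pf4 are known platelet genes, and the other 2 were Hbb-bt, a beta globin, and Gzmk, a granzyme. The Gzmk call held in 2 of the 10 fits with 1 library left out (adjusted p up to 0.0998) and not with mouse as a block (0.0666 on 14 groups, 0.0978 on 10 libraries). Erythroid markers summed to 2.24, 6.30, 22.4, 478 and 584 CPM in blood of mice 1 to 5 and to 0.367 to 11.4 in spleen. Hbb-bs was at 1.79, 1.26, 0.487, 153 and 204 CPM in blood, so that the value rested on mice 4 and 5, and reads of the near-identical Hbb-bt and Hbb-bs may be split between them. With mouse as a block in the 14-group fit, Tubb1 and Hba-a1 were called as well (adjusted p = 0.0347 and 3.68e-04). Neutrophil markers summed to 309 CPM in blood of mouse 2, to 2.92 in mouse 3 and to 0 in all other libraries. B cell markers were at 781 to 1223 CPM in blood and 1009 to 1171 in spleen, mostly Ighm, with Ms4a1 at 0 in all 10 libraries. Their member Cd74 fell 1.99-fold in blood (adjusted p = 0.0281, called in 3 of the 10 fits with 1 library left out, and 0.0639 with mouse as a block in the 10 libraries). Monocyte and macrophage markers reached 106 CPM in blood and 25 in spleen, with Csf1r, C1qa and Adgre1 at 0, NK and CD8 markers 102 and 57.8, dendritic cell markers 189 and 153, and stroma and endothelium markers 0.630 and 3.15, with none of these called. The part of RNA from these other cells in the genes that rose or fell was not tested.

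The same tissues could be compared in ST2+ CD44hi Tregs, with 4 of 5 blood and 5 spleen libraries over the threshold, from the same mice and with no library in common. Those blood libraries, of mice 2 to 5, came from 202, 55, 220 and 220 sorted cells, and each spleen library from 220. With sorted cell number in the model, 6 genes differed by ST2 in place of the 13 described here. Between ST2+ cells of blood and spleen, 573 genes (4.35%) were called in the main fit. Of these 168 were called in the same direction in ST2- cells, which is 35.3% of the ST2- list and 29.3% of the ST2+ list, with 109 higher and 59 lower in blood and none called in opposite directions. Of the 476 genes, 420 had the same sign in ST2+ cells (88.2%, against 61.9% of all genes). Tnfaip3 (log2 fold change 1.43), Klf2 (1.13), S1pr1 (1.06), Cd83 (-2.86), Ccr8 (-2.83), Tnfrsf9 (-2.68) and Nfkbid (-2.78) were called in both, as was Egr2, which had no count in ST2+ cells of blood against 85.2 ± 56.8 CPM in those of spleen. The difference between the 2 contrasts was called for 13 genes (0.0987%) with 1197 at an unadjusted p under 0.05. It included Satb1, which was 2.15 higher on the log2 scale in ST2- cells of blood and at -0.59 in ST2+ cells (difference 2.75 ± 0.56, adjusted p = 0.0342). Areg fell in ST2- cells and gave -0.02 in ST2+ cells (difference -2.87 ± 0.63, adjusted p = 0.0385), Nfil3 gave -1.93 and 0.49 (difference -2.42 ± 0.45, adjusted p = 0.0108), and Bcl2 gave 0.89 and -0.93 (difference 1.82 ± 0.40, adjusted p = 0.0385). Cxcr5 had no count in ST2+ cells of blood against 34.5 ± 18.3 CPM in those of spleen, while ST2- cells kept 95.1 ± 30.7 in blood and 185 ± 14.1 in spleen. Without the blood ST2- libraries of mice 1 and 2 no gene passed, without those of mice 4 and 5, 75 did, and DESeq2 called 94.

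**Figure D5:**
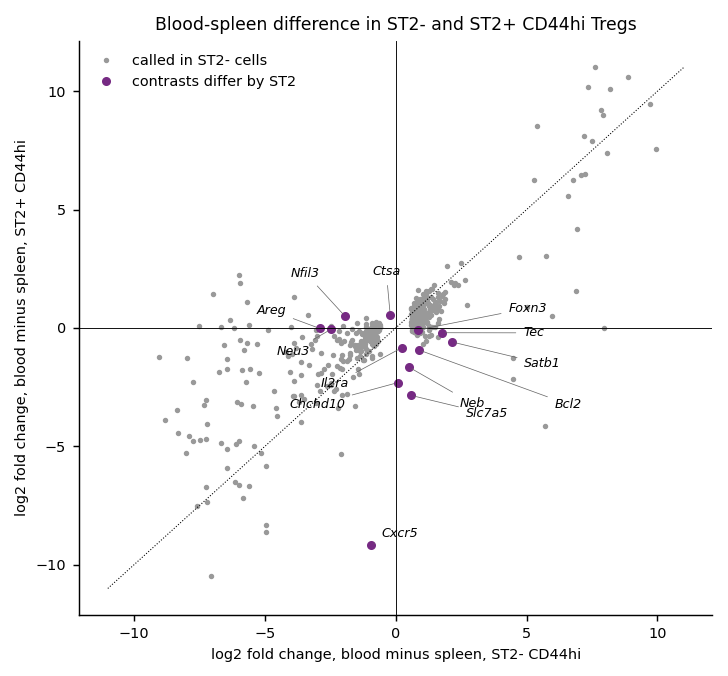
Log2 fold change between blood and spleen in ST2+ CD44hi Tregs against that in ST2- CD44hi Tregs for the 476 genes called in ST2- cells (grey) and the 13 genes whose contrasts differed (purple). The dotted line marks equal values. Cxcr5 lies lowest of the 13, at a fitted value that has no fixed size because ST2+ cells of blood had no count.

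Levels in ST2- CD44hi Tregs of lung and in resting ST2- CD44lo Tregs of spleen are given beside those of blood and spleen as a description. In the paper, an antibody injected into a vein marked most lung Tregs, which places them in or near vessels. Lung cells were enriched for CD4+ cells before the sort, as spleen cells were and blood cells were not. Lung was also digested with collagenase, a step that blood and spleen did not undergo. The part of circulating cells or of these steps in the lung levels was not tested. S1pr1 stood at 814 ± 92.5 CPM in blood, 372 ± 25.6 in spleen, 872 ± 67.4 in lung and 733 ± 34.3 in resting spleen cells, so that the CD44hi cells of spleen were the lowest of the 4. Klf2 showed the same order at the bottom, with 416 ± 34.1, 128 ± 18.6, 367 ± 66.1 and 243 ± 50.1. Tnfaip3 was highest in lung, at 2056 ± 253 CPM, against 803 ± 148 in blood, 232 ± 53.1 in spleen and 219.9 ± 83.9 in resting spleen cells. Pdcd1 in blood, at 55.3 ± 40 CPM, was near the 59.0 ± 25 of resting spleen cells, with 409 ± 49 in CD44hi spleen cells and 314 ± 92.0 in lung. Ccr8 was alike, with 11.7 ± 7.56 in blood, 13.4 ± 2.73 in resting spleen cells, 147 ± 27.4 in CD44hi spleen cells and 170.2 ± 52.3 in lung. Other genes that fell did not share this likeness of blood and resting spleen cells. Nfkbid (46.7 against 151 CPM), Tnfrsf9 (82.0 against 196) and Bcl3 (69.6 against 178) were lower in blood than in resting spleen cells. Tigit (71.1 against 1.74) and Tox2 (8.22 against 0.393) were higher in blood than in those cells. Areg was far higher in lung, at 159 ± 53.9 CPM, than in blood (2.54 ± 1.64) or spleen (19.3 ± 8.09). Nr4a1 reached 466 ± 116 CPM in lung, against 20.3 ± 18.1 in blood and 102 ± 68.5 in spleen, whereas Egr2 was at 2.24 ± 5.0 in lung, 107 ± 27.9 in CD44hi spleen cells and 34.8 ± 30.7 in resting spleen cells.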

How the data were processed

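RNA of sorted cells was amplified with SMART-Seq, made into libraries with NexteraXT and sequenced in single reads. The deposited file holds whole-number counts per Ensembl gene that the authors made with STAR on GRCm38 and HTSeq 0.4.1; the strand setting of the counting is not given in the sources used here, so overlapping and antisense genes cannot be told apart. Names, types and coordinates came from GENCODE M21 (53274 of 53465 IDs matched). Counts were analysed as deposited with edgeR 4.0.16. Libraries over 1000000 counts (67 of 70) entered a fit of 14 groups with TMM factors, and 13173 protein-coding genes with at least 1 CPM (count per 1000000 counts) in at least 10% of them were tested by quasi-likelihood. Genes were called where the fold was 1.5 or more and the p, adjusted by Benjamini-Hochberg, 0.05 or less. CPM in the text use TMM-scaled totals, log2 fold changes are blood minus spleen, and errors of CPM are SD.

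The same 5 mice gave both tissues, so the samples are paired by design, although same-mouse deviations from the group means correlated by only 0.00762 to 0.0882 over 7947 genes. The main fit holds no mouse term, and the study's methods do not say whether 1 was used. Fits with it are given beside results they change. Genes named in the text are the 12 called genes with the smallest adjusted p and the 6 with the largest fold in each direction (mean of at least 10 CPM in the higher group), called members of the gene lists, the members that define a list, and genes of the sort gate. The groups, lists and tests were chosen with earlier results of these data known. On simulated counts with 200 changed genes, edgeR recovered 53.7% of those changed 2-fold and 84.8% of those changed 4-fold with 6 false calls among 13173 genes. The changed genes were drawn from the more highly expressed ones, and all groups otherwise shared the same means. Libraries with few detected genes were not simulated, so these rates do not cover genes near 0 or such libraries. No 2 libraries of a group were identical. Intervals cover counting error only. P-values measure the spread between these samples. Alternatives were DESeq2 1.42.0, voom with quality weights (limma 3.58.1), other factors, filters, gene types and library sets, sorted cell number as covariate, mouse as a block, and 1 library left out in turn. A few genes and gate markers are not reported here.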

Additional observations from a re-analysis of the deposited data

Results flagged for a closer look

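Values of single libraries were far from the others of their group in 6 of 96 groups tested by the gap to the nearest library (Dixon's criterion, which chance passes in about 1 of 20 groups). These were Satb1 in blood of mouse 5 (416 CPM), Ccr7 in blood of mouse 2 (1258 CPM), Bcl3 in blood of mouse 1 (119 CPM), Egr2 in blood of mouse 4 (3.60 CPM), Angptl2 in blood of mouse 5 (21.9 CPM) and Nr4a1 in spleen of mouse 1 (221 CPM).

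The difference between blood and spleen was not the same in ST2- and ST2+ cells for 13 genes (interaction in edgeR). The blood-minus-spleen log2 fold change was higher in ST2- cells for Slc7a5 (by 3.45), Satb1 (2.75), Chchd10 (2.38), Neb (2.15), Tec (1.96), Bcl2 (1.82), Il2ra (1.07) and Foxn3 (0.93). It was also higher for Cxcr5, but the fitted 8.19 is neither a size nor a bound, since Cxcr5 had no count in ST2+ cells of blood and the value depends on the prior count of the fit. It was lower in ST2- cells for Areg (-2.87), Nfil3 (-2.42), Neu3 (-2.42) and Ctsa (-0.76). Of the 13, 7 were among the 476 genes called in ST2- cells. Slc7a5, Chchd10, Neb and Il2ra were called in ST2+ cells and had adjusted p of 0.464 to 0.990 in ST2- cells. No gene of the 13 passed once the blood ST2- libraries of mice 1 and 2 were left out.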

How the results depend on the processing

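Counts of called genes moved by over 1.5 times under some settings. In place of 476 genes (255 higher, 221 lower), voom with quality weights on 14 groups called 935 (448 and 487), all 70 libraries 282 (143 and 139), glmTreat 117 (39 and 78), and the 10-library fit with mouse as a replicate block 290, of which 111 were lower; with the replicate block on 14 groups the count was 566, and the block changed no other call than those given beside the results and that of Maf (called with adjusted p = 0.0326 on 14 groups). DESeq2 called 386 genes lower. Settings chosen after seeing the data gave 263 genes, 88 of them lower, without the blood libraries of mice 1 and 2, and 147 (93 and 54) without mice 1 and 2 in both tissues. With 1 library left out the count was 350 to 492, and 250 of the 476 genes were called in all 10 such fits. The difference by ST2 gave 94 genes with DESeq2, 47 with voom, 2 with all gene types, 6 with all 70 libraries, 1 with glmTreat, 6 with sorted cell number as covariate, 1 to 31 with 1 library left out, 75 without the blood libraries of mice 4 and 5, and 0 without the blood libraries of mice 1 and 2 or without both mice. The cause was not tested. No called gene named here reversed: of 2455 values of 95 genes, 2145 kept the call and 310 kept the sign alone. Depth limits the genes at 0 in blood to the bounds given.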
